A study of Drosophila melanogaster with 2 samples.

Results

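The densest clusters of accessible regions in mushroom body (MB) nuclei of the fly are described here. Regions with a peak in both replicates, called consensus regions, were placed by their midpoint in fixed 50 kb bins, and the clusters were the bins with 11 or more consensus regions. There were 74 such dense bins among 2754 bins, which is 2.69% of bins, and they held 872 of the 11705 consensus regions, which is 7.45% of regions. The bins were chosen by the measured peak positions of both replicates, so these counts are no finding, and the peak positions, widths, spacing and heights in dense bins are given as a description without a test.

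Accessibility was measured by ATAC-seq, in which the transposase Tn5 cuts open DNA. Both samples were naive flies of the genotype w*;UAS-Unc84::2xGFP/+;R14H06-Gal4/+, collected when trained flies would have been 1 h past the start of courtship training, and each was a pool of 50 to 60 heads. The methods of the study describe male flies. GFP-tagged nuclei were isolated with antibody-bound beads (INTACT), and the R14H06-Gal4 driver limits the tag mainly to Kenyon cells, the intrinsic neurons of the MB. There was 1 group with 2 biological replicates, so no comparison between groups was possible. Replicate 1 had 13868 peaks and replicate 2 had 14583 peaks.

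Open chromatin in Drosophila lies mainly at promoters, where polymerase and core promoter factors displace nucleosomes, and at enhancers, many of which lie in the introns of long genes for transcription factors and neuronal proteins. The compact fly genome packs widely expressed genes closely together, so that many promoters can share a short stretch of DNA. A bin can therefore hold many accessible regions because it holds many genes, or because a single gene carries many regions in its introns. DNA motifs differ between these settings. TATCGATA, the DNA replication-related element (DRE) bound by DREF, and GGTCACACT, known as Motif 1 and bound by M1BP, are typical of promoters of widely expressed genes. GAGAGAG is bound by GAGA factor, GTGGGCG by zinc finger proteins of the EGR family such as Sr, and TGACGTCA, the cAMP response element (CRE), by CREB proteins.

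The windows around the summits of 6 dense-bin regions are examples of both settings. The first 4 lie away from promoters, in introns of ftz-f1, Eip74EF and Gprk2 and in the only dense bin without a gene, and the last 2 lie over the transcription start sites (TSSs) of EndoA and RpL37A. Each window holds 201 bases of the RefSeq Release 6 assembly (dm6), + strand, and capitals mark a match on either strand to GTGGGCG in the ftz-f1 and gene-less windows, GAGAGAG in the Eip74EF window, TGACGTCA in the Gprk2 window, TATCGATA in the EndoA window and GGTCACACT in the RpL37A window.
ftz-f1 intron (chr3L:18771644-18771844): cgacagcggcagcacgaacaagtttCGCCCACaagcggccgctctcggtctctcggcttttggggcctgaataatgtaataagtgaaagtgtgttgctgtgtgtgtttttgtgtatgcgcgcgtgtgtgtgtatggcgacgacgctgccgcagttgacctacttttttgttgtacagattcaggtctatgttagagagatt
Eip74EF intron (chr3L:17590597-17590797): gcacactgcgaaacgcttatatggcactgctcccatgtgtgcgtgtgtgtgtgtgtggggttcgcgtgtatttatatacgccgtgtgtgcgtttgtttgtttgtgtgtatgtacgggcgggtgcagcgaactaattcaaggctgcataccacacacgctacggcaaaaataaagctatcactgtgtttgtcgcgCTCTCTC
Gprk2 intron (chr3R:31419611-31419811): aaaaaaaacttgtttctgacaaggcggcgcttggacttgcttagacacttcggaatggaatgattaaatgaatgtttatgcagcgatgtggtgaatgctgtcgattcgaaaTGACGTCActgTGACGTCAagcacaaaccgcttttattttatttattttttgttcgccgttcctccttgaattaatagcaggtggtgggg
region between NijA and CG43245 (chr3L:10718206-10718406): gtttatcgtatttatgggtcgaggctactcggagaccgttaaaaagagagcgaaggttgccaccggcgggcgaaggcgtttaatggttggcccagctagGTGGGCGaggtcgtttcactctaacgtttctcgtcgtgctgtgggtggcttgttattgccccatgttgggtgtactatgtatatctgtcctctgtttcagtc
EndoA TSS (chr3R:18906583-18906783): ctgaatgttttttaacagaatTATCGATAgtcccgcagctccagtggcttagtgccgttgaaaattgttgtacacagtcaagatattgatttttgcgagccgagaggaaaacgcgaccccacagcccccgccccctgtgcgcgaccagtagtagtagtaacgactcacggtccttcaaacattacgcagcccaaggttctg
RpL37A TSS (chr2L:5070914-5071114): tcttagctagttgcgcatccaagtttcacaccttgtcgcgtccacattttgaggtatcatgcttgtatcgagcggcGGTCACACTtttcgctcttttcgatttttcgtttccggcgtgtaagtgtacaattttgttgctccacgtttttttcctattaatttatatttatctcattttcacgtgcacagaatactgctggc

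The ftz-f1 window comes from the dense-bin region with the highest mean percentile, where the fold enrichment was 7.56 and 6.07 (replicate 1 first, then replicate 2, as in every such pair of values). Fold enrichment is the pileup of fragments at the summit over the local background of the same library. The Eip74EF window had values of 5.20 and 5.44, the EndoA window 3.98 and 3.79, the gene-less window 3.30 and 3.50 and the RpL37A window 2.85 and 2.27. The Gprk2 window, with 2 copies of TGACGTCA, lay in a low peak with fold enrichments of 1.61 and 1.77. A match is a description of the letters in the window and not a binding site. The Eip74EF, Gprk2, EndoA and RpL37A windows were picked as the highest with their motif in their class of region and bin. The window of the highest region in the lilli bin had no match to the motifs counted and is not shown. The windows therefore do not show how often a motif occurs.

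**Figure D1:**
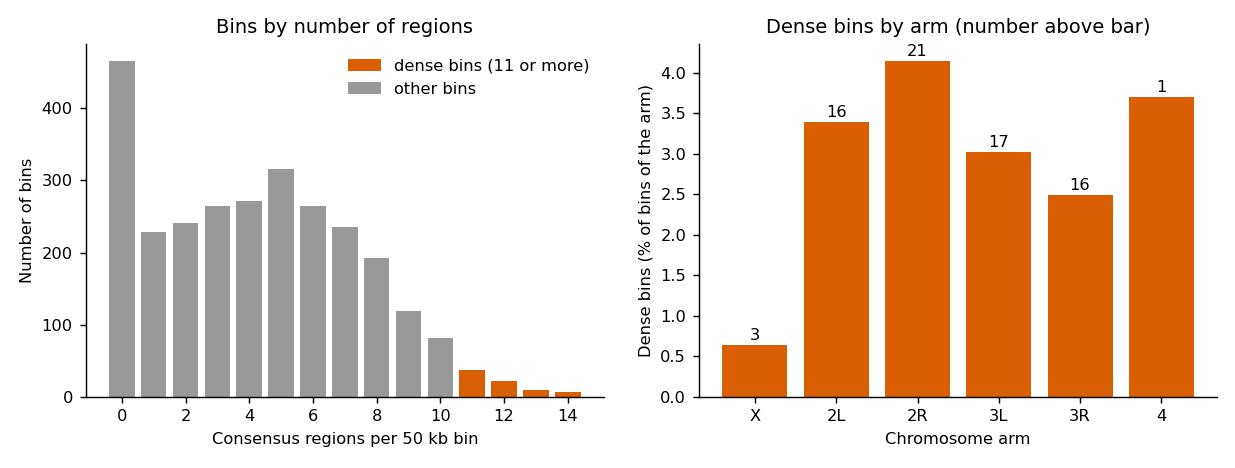
The left plot gives the number of 50 kb bins by the number of consensus regions they hold, and the right plot gives dense bins as a percentage of the bins of each chromosome arm, with their number above each bar. Bins with 11 or more regions form the end of a falling distribution, and the X had the lowest percentage of the 6 arms drawn.

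The threshold cut through a falling distribution without a gap. There were 466 bins without a consensus region, 81 bins with 10, 37 with 11, 22 with 12, 9 with 13 and 6 with 14 regions, the highest number reached. Bins just inside the threshold, with 11 regions, were close to those just outside it, with 10, in the measures that follow. The share of regions that covered a TSS was 49.9% with 11 regions per bin and 51.0% with 10, and the median fold enrichment percentile was 55.0 with 11 and 51.4 with 10. A percentile is the percent of the replicate's peaks with a lower fold enrichment, averaged over the 2 replicates. The share over a TSS was lower further inside, at 36.7%, 30.8% and 34.5% of regions in bins with 12, 13 and 14 regions. The bins with 12 and 13 regions also had fewer TSS positions, with a median of 10.5 and 8, against 17 in bins with 11 regions, while the 6 bins with 14 had 14.

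The place of the bin borders decided much of the membership. When the bins were shifted by 25 kb there were 84 dense bins with 967 regions, and only 324 of the 872 regions, or 37.2%, were again in a dense bin. Each dense bin also held 11 or more peaks in replicate 1 alone and in replicate 2 alone, with a median of 13 peaks in each. However, 238 bins reached that number in replicate 1 and 298 in replicate 2, so the dense bins were 31.1% and 24.8% of the bins that a single replicate would have named.

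Dense bins occurred on every large arm. There were 21 on 2R, 17 on 3L, 16 on 2L, 16 on 3R, 3 on the X and 1 on chromosome 4, and none on the Y. They made up 4.15% of the bins of 2R, 3.40% of 2L, 3.02% of 3L, 2.49% of 3R and 0.637% of the X. The X had fewer consensus regions in all, with 3.28 per bin, against 4.41 to 4.67 per bin on the 4 large autosome arms. The median summit pileup of its regions was also lower, at 224 in replicate 1 and 228 in replicate 2, against 251 to 265 in replicate 1 and 254 to 268 in replicate 2 on those arms. Male flies carry a single X, and the part of copy number in the low share of dense bins was not tested. Most dense bins stood alone. In 6 places 2 dense bins were adjacent, and no run was longer. The run with the most regions spanned chr2L:2850001-2950000, over and beside lilli, with 26 regions.

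The dense bins were divided into promoter-rich, mixed and distal-rich ones by the share of their regions over a TSS. In 32 bins with 371 regions, 50% or more of the regions covered a TSS, in 26 bins with 315 regions 25% or less did, and 16 bins with 186 regions lay between. Since this cut used regions over a TSS, differences between the kinds in TSSs and gene starts are in part built in. Promoter-rich bins held a median of 13 starts of protein-coding genes (range 3 to 24) and 23 TSS positions (9 to 31). Distal-rich bins held a median of 3 gene starts (0 to 9) and 6 TSS positions (0 to 14), and 5 of them held no start of a protein-coding gene. A single gene covered 50% or more of the bin in 18 of the 26 distal-rich bins and in 1 of the 32 promoter-rich bins. The median gap between neighbouring regions was 2153 bp in distal-rich and 2683 bp in promoter-rich bins. Promoter-rich bins were most frequent on 2R, with 14 of 32, and distal-rich bins on 3L and 3R, with 9 each of 26.

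**Figure D2:**
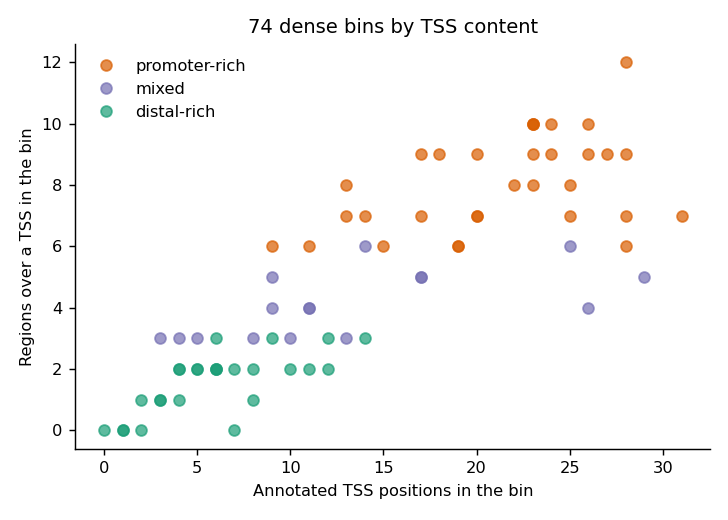
Each point is 1 of the 74 dense bins, with its annotated TSS positions on the x axis and the number of its regions that cover a TSS on the y axis, coloured by kind. The kinds were cut by the share of regions over a TSS, so their separation is in part built in. Distal-rich bins had 0 to 14 TSS positions against 9 to 31 in promoter-rich bins.

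The 5 bins with the most regions, 14 each, showed both kinds. The first, chr3L:3800001-3850000, was promoter-rich and had a region over a TSS of CG32264, IntS10, ntc, CG32262, CG32263, PIG-B, Scsalpha1, enc, Rdh and Awh. IntS10 encodes a subunit of the Integrator complex, which processes small nuclear RNAs, and PIG-B an enzyme of GPI anchor synthesis. Its highest region lay over the TSS of Awh, which encodes a LIM homeodomain protein, with fold enrichments of 5.97 and 5.87. The other 13 regions of that bin reached at most 3.70 in replicate 1 and 3.85 in replicate 2, both in the region over the CG32264 TSS.

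The second, chr2L:2900001-2950000, lay wholly inside lilli, which encodes a nuclear protein of the AF4/FMR2 family that acts in transcription elongation. None of its 14 regions covered a TSS and 13 of them were over 3 kb from any. The peaks were of moderate height, with fold enrichments of 1.36 to 2.71 in replicate 1 and 1.496 to 2.71 in replicate 2. The lilli gene as a whole had 17 dense-bin summits in its body, the most of all genes.

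The third bin, chr2L:10250001-10300000, was promoter-rich, with 10 of 14 regions over a TSS. These covered, among others, TSSs of bsk, which encodes the JNK kinase, CG31717, CG5676, Rsf1, Mob3, CG4957, Mulk, the histone H3K27 demethylase gene Utx, the ubiquitin ligase gene Ufd4 and the deubiquitinase gene CYLD. The heights ranged widely. The Utx region had fold enrichments of 4.19 and 3.81 and the Ufd4 region 4.02 and 3.84, while the CG4957 region had 1.33 and 1.34 and the Mob3 region 1.39 and 1.32.

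The fourth, chr3R:11600001-11650000, was mixed. Its 6 regions over a TSS included those of Jupiter, a gene for a microtubule-associated protein, with 3.79 and 3.58 at one TSS and 3.76 and 3.57 at another shared with CG14710. Regions over the TSSs of CG14711, CG18764, CG6813 and CG14712 lay between 1.29 and 2.47 in both replicates. The bin also held Csk, which encodes a kinase that restrains Src, with 6 regions in its body between 1.34 and 1.89. Of these, 1 covered a TSS and is among the 6 regions over a TSS.

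The fifth bin, chr2R:18300001-18350000, lay inside sbb, a gene for a transcriptional corepressor also known as brakeless. Only 1 of its 14 regions covered a TSS, that of CG14505, and 11 were over 3 kb from any. The highest region, at chr2R:18309144-18310240, had fold enrichments of 4.20 and 4.08, and the lowest had 1.31 and 1.48. A further bin with 14 regions, chr3R:22000001-22050000, had fewer bases in regions and contained Eip93F, Mitofilin and how.

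**Figure D3:**
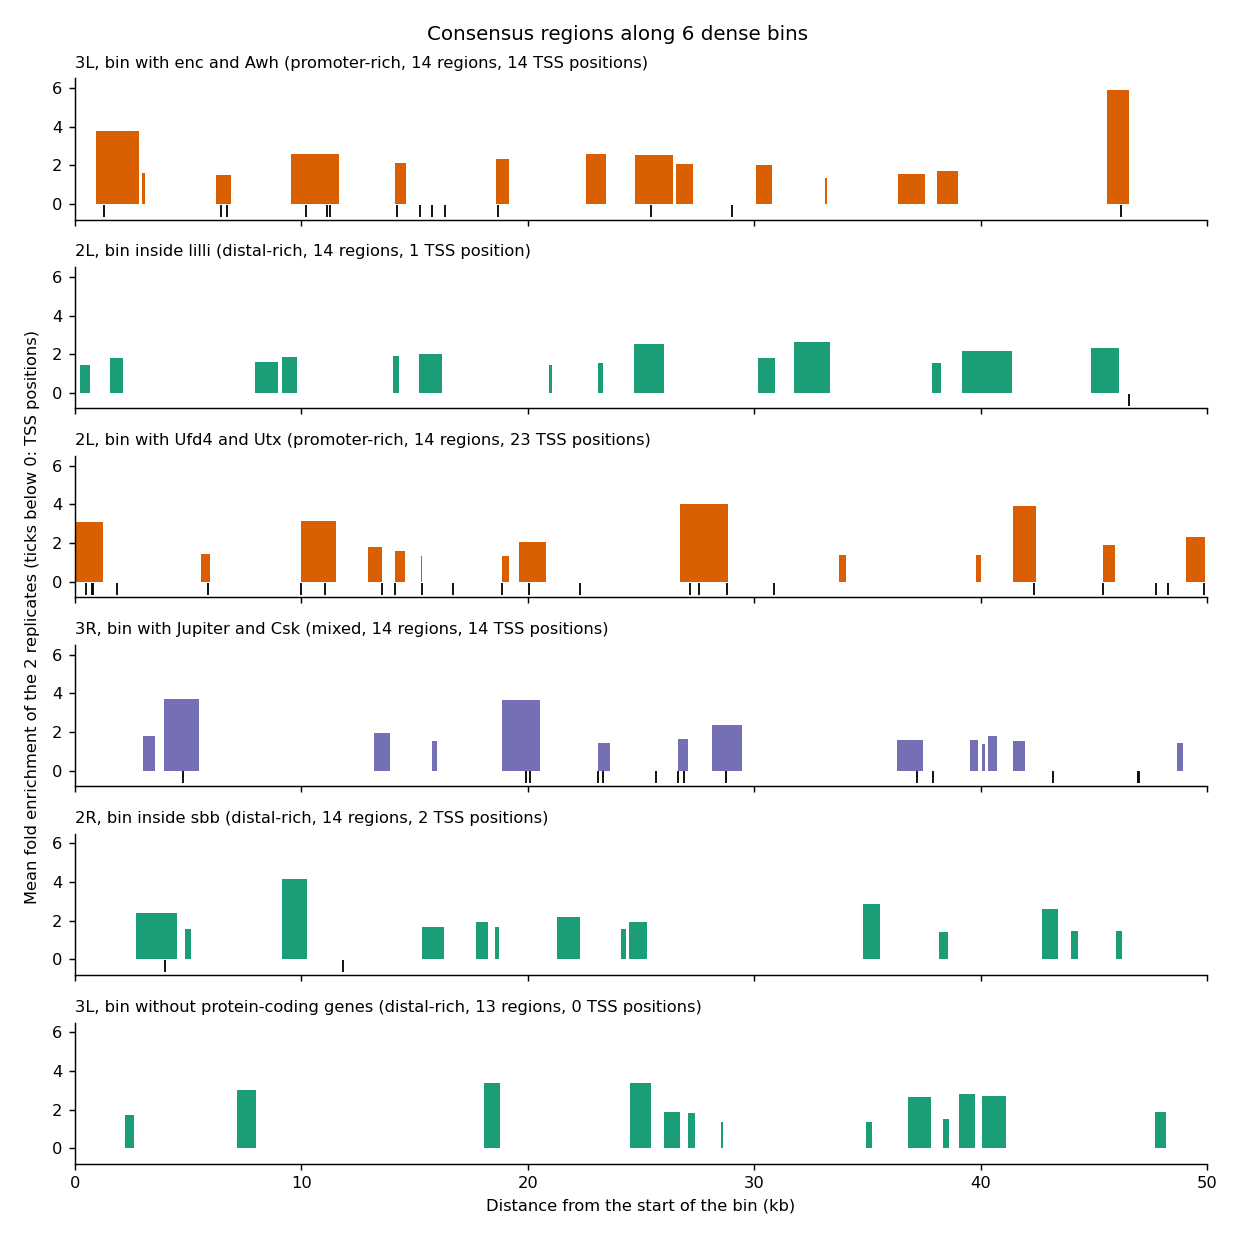
The bars are the consensus regions of 6 dense bins, drawn to scale along the 50 kb of each bin, with the mean fold enrichment of the 2 replicates as height, and ticks below 0 mark annotated TSS positions. In the bins inside lilli and sbb and in the bin without protein-coding genes 0, 1 and 0 bars stand on a tick, while 7 of 14 do in the bin with enc and Awh and 10 of 14 in the bin with Ufd4 and Utx.

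The next distal-rich bins by number of regions, with 13 each, lay at CG42788 and Glys, at psq and at pros. The bin at chr3R:15100001-15150000 had the region over the CG42788 TSS, with fold enrichments of 6.67 and 6.35, and 7 further regions in the CG42788 body, of which the highest had 4.08 and 3.88. The TSS of Glys, the glycogen synthase gene, lay in a region with 3.43 and 3.10. In the bin at chr2R:10550001-10600000, psq, a BTB domain transcription factor gene, had 9 regions, and the highest region of the bin, with 3.05 and 3.09, lay upstream of it at chr2R:10553868-10554600. In the bin at chr3R:11300001-11350000, 6 regions lay outside gene bodies upstream of pros, which encodes a homeodomain protein of neural precursors, and the highest of them, at chr3R:11302527-11303900, had 4.74 and 4.43.

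One bin, chr3L:10700001-10750000, contained no gene of any type and no TSS but 13 regions. It is named here because of that, after its values were seen. The nearest protein-coding genes were NijA, 3123 bp to the left, and CG43245, 21925 bp to the right. Fold enrichments ran from 1.37 to 3.30 in replicate 1 and from 1.33 to 3.54 in replicate 2. The 2 regions with the highest mean percentile, chr3L:10718061-10718790 and chr3L:10724494-10725432, had 3.30 and 3.50 and 3.17 and 3.54. The bin to its left was also dense, and together they held 24 regions.

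Of the 11 MB genes on the list examined here, 2 had a dense-bin region at a TSS, mub and Pka-C1. Over all protein-coding genes the share with a dense-bin region within 500 bp of a TSS was 3.66%, and a count of 2 from so short a list does not set MB genes apart. The list was ey, toy, Dop1R1, Dop1R2, rut, dnc, Fas2, mub, prt, sNPF and Pka-C1, and the others had no dense-bin summit in their bodies either. The pros gene, whose bin is described above, was not on the list, although the paper uses prospero as a marker of αβ Kenyon cells. The bin at chr3L:21850001-21900000 lay wholly inside mub, which encodes a KH domain RNA-binding protein named for its expression in the MB. Its region over a mub TSS had fold enrichments of 3.87 and 4.04, and an intronic region at chr3L:21863092-21864506 had 3.13 and 3.21. The other 11 regions of the bin lay between 1.37 and 1.98 in replicate 1 and between 1.35 and 1.99 in replicate 2, so this bin had the lowest median percentile of the 74, at 21.2. Pka-C1 encodes the catalytic subunit of protein kinase A, a kinase of the cAMP pathway of olfactory memory. Its TSS region, which also covers TSSs of hoip and pelo, had 3.18 and 3.36, and 3 regions in the Pka-C1 body had 1.48 to 1.83 over both replicates.

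The 10 dense-bin regions with the highest mean percentile lay at 8 genes. The first was the intronic region of ftz-f1, a nuclear receptor gene of the ecdysone response, at chr3L:18771155-18772311, whose sequence is given above. The region over the TSS of ftz-f1, at chr3L:18765306-18766131, had fold enrichments of 5.10 and 4.89. Eip74EF, an ecdysone-induced ETS transcription factor gene, had 2 of the 10, both intronic, with 5.20 and 5.44 and with 4.89 and 4.75. The remaining 6 were the regions over the TSSs of CG42788 and Awh given above, the region over the TSS of CG5151 with 4.85 and 4.95, the region over the TSS of kmr with 5.14 and 4.54, an intronic region of Mid1 with 6.69 and 5.51, and an intronic region of eIF4EHP, which encodes a translational repressor that binds the mRNA cap, with 4.88 and 4.74. Thus 5 of the 10 covered a TSS and 5 lay in introns over 3 kb from a TSS. Such heights were rare in dense bins, since 45 of 872 regions, or 5.16%, had a mean percentile of 90 or more, against 12.4% of the other consensus regions, and 34 of the 74 dense bins had at least 1 such region.

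A smaller share of dense-bin regions than of the rest covered a TSS, and a larger share lay in introns. A TSS was covered by 365 of 872 dense-bin regions, or 41.9% (Wilson 95% interval 38.6 to 45.2), against 52.1% (51.2 to 53.0) of the 10833 other consensus regions. Over 3 kb from any TSS lay 32.2% (29.2 to 35.4) of dense-bin regions, against 27.1% (26.2 to 27.9) of the others. Summits in introns were 46.8% of dense-bin summits and 37.3% of other summits, those in exons 34.1% and 33.7%, and those between genes 19.2% and 28.9%. The intervals do not overlap for either TSS share, but they cover counting error only, neighbouring regions are not independent, and no test was run. The share over a TSS was 46.3% when bins with 10 regions were counted as dense and 34.8% when 12 were required. For intronic regions over 3 kb from a TSS, the median length of the protein-coding host gene was 50703 bp for dense-bin regions and 52615 bp for the others. These medians run over regions, so a gene with several such regions counts several times.

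Among the genes with many dense-bin summits in their bodies, lilli had 17, sbb 14, CG32264 13, mub 13, Gprk2 12, ftz-f1 12, mbl 12, CG42784 11 and Ten-m 11. Gprk2 encodes a kinase of G protein-coupled receptors, mbl the splicing factor Muscleblind and Ten-m a teneurin of synaptic partner matching. These genes differed in height, with median fold enrichments over their dense-bin regions of 2.87 and 2.78 for ftz-f1, 1.70 and 1.84 for mbl and 1.53 and 1.52 for Ten-m. In lilli and in ftz-f1 nearly every consensus region of the gene was in a dense bin, 17 of 17 and 12 of 13, whereas mbl had 12 of 22.

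A larger share of genes in dense bins had a region at the promoter. The most upstream TSS of 637 of 13968 protein-coding genes, or 4.56%, lay in a dense bin. Of these, 498, or 78.2%, had a consensus region within 500 bp of a TSS, against 55.3% of the 13331 genes of the other bins. Dense bins were chosen for their number of regions, which include those at TSSs, so this difference is in part built in. Counted from the regions, 511 genes, or 3.66% of all, had a dense-bin region within 500 bp of a TSS.

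No gene group examined had more than 7 genes that started in dense bins, and these shares are to be read against the 4.56% of all protein-coding genes. A consensus region at a TSS, in any bin, was found for 7865 of 13968 protein-coding genes, or 56.3%. Shares of genes with such a region are to be read against that. Of 86 cytosolic ribosomal protein genes 7 had their start in a dense bin, namely RpL23, RpL24, RpL37A, RpS12, RpS21, RpS27A and RpS4, and each had a region there at its TSS. Of 73 mitochondrial ribosomal protein genes 5 did (mRpL20, mRpL35, mRpL38, mRpL53 and mRpS6), and of 48 proteasome subunit genes 4 did (Prosalpha2, Prosalpha5, Rpn11 and Rpn13). These shares of 8.14%, 6.85% and 8.33% rest on few genes. At the other end, 2 of 179 chemoreceptor genes (Ir31a and Ir54a, both without a region at the TSS) and none of 117 cuticular protein genes were in a dense bin, and only 8.38% and 4.27% of these genes had a consensus region at a TSS anywhere. Of the known gene complexes of the fly, none of the 8 Hox genes and none of the 11 genes of the Enhancer of split complex had a start in a dense bin, although 7 of the Hox genes had a region at a TSS.

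The lists of neuronal and memory genes were short. Their counts of starts in dense bins are likewise to be read against the 4.56% of all protein-coding genes. Counts of genes with a region at a TSS are to be read against the 56.3% of all. None of 32 genes of the Dpr and DIP recognition proteins, of 11 synaptic vesicle release genes, of 7 Kenyon cell temporal identity genes and of 7 activity-regulated genes started there, although 30, 10, 7 and 7 of them had a consensus region at a TSS. Among 14 potassium channel genes Shab was the only one. Hr38 and sr, the activity-regulated transcription factor genes at the centre of the study, lay in bins with 5 and 2 consensus regions. Of 11 MB genes all had a region at a TSS, and Pka-C1 was the only one with its start in a dense bin. Of 13 markers of other cell types of the head (blood cells, muscle, fat body, photoreceptors and glia) 2 had a region at a TSS, the glial genes Eaat1, a glutamate transporter, and moody, a receptor of the blood-brain barrier, and both lay in dense bins. The other 11 had none.

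Peaks were lower over their background in dense bins, and the background was higher. Dense-bin regions had a median percentile of 48.6 in replicate 1 and 51.5 in replicate 2, against 58.5 and 60.3 for the others. The median fold enrichment was 1.95 and 1.91 in dense bins and 2.24 and 2.16 elsewhere. The median background, which the peak caller takes from the same library around the summit, was 127 and 132 in dense bins and 102 and 107 elsewhere. The median summit pileup, that is the coverage itself, was 260.0 and 258 in dense bins and 252 and 254 elsewhere. Each of these differences held in both replicates, the one in pileup being the smallest. The background was solved from the deposited fold enrichment and p-value and is in the same unit of fragments or cut sites as the pileup.

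The fold enrichment was lower with each step in the density of regions, while the pileup rose and then levelled off. In bins with 1 to 3, 4 to 6, 7 to 10 and 11 or more regions, the median fold enrichment in replicate 1 was 2.56, 2.31, 2.11 and 1.95, and in replicate 2 it was 2.45, 2.23, 2.05 and 1.91. The median background was 82.9, 97.6, 114 and 127 in replicate 1 and 88.6, 103.2, 120.4 and 132 in replicate 2. The median pileup was 231, 248, 260.0 and 260.0 in replicate 1 and 239, 249, 261 and 258 in replicate 2. Ranked by pileup in place of fold enrichment, an alternative chosen after seeing the data, the median percentile was 51.4 for dense-bin regions and 49.8 for the others. Background and density moved together, and the part of the background in the lower fold enrichment of dense bins was not tested. The ranking by pileup cannot separate them, since the peaks were called against the same background.

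**Figure D4:**
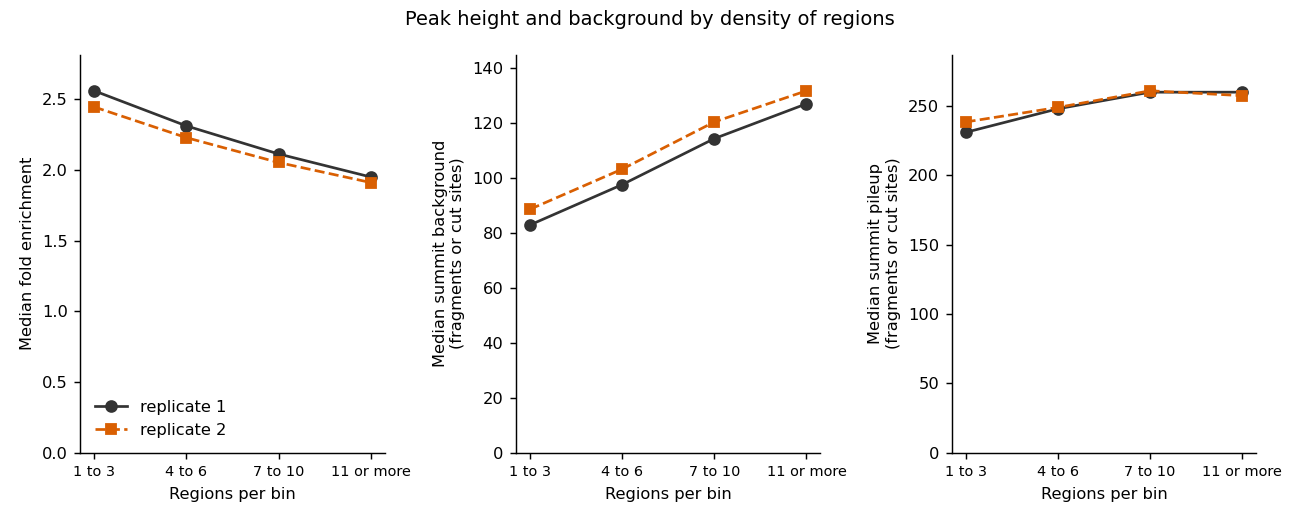
The 3 plots give the median fold enrichment, summit background and summit pileup of consensus regions by the number of regions in their bin, with circles for replicate 1 and squares for replicate 2. Fold enrichment falls and background rises from bins with 1 to 3 regions to bins with 11 or more, and the pileup changes least between 7 to 10 and 11 or more.

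Fold enrichment was lower in dense bins within each class of position. Over TSSs, the median percentile was 65.7 for dense-bin regions and 73.6 for other regions, and the median background in replicate 1 was 142 and 120.4. Beside TSSs, within 3 kb but not over one, it was 34.9 in dense bins and 41.1 elsewhere. Over 3 kb from a TSS, the median percentile was 38.9 in dense bins and 42.8 elsewhere, while the median pileup was 195 and 205 in the 2 replicates in dense bins and 167 and 176 elsewhere. By coverage alone, then, the distal regions of dense bins stood higher than other distal regions, and by fold enrichment lower. Their median background was 105 and 110 in the 2 replicates, against 83.7 and 90.9 for other distal regions. A peak had to exceed its background to be called, so the higher pileup is in part built in. Neighbouring peaks can raise the background, so the lower fold enrichment may be as well. Dense-bin regions were also narrower, with a median of 767.5 bp against 921 bp, and lay 2468.5 bp apart against 4393 bp.

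A smaller share of the regions of dense bins was seen in only 1 replicate. Of 1049 merged regions in dense bins 16.9% had a peak in 1 replicate only, 77 in replicate 1 and 100 in replicate 2, against 26.8% of the merged regions of other bins. The regions of 1 replicate were low, with a median percentile of 9.20 in replicate 1 and 11.8 in replicate 2 in dense bins. Since dense bins were chosen for regions with peaks in both replicates, the lower share is in part built in. The rank correlation of fold enrichment between replicates was 0.954 over dense-bin regions and 0.964 over the others, as a description across regions of the same 2 libraries.

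The number of regions relative to TSSs is given as a description, since the bins were sorted by their number of regions and a higher ratio is in part built in. There were 0.317, 0.483, 0.622 and 0.831 consensus regions per TSS position in bins with 1 to 3, 4 to 6, 7 to 10 and 11 or more regions. The median number of TSS positions was 5, 10, 13 and 13. Bins with 7 to 10 regions and dense bins thus had the same median number of TSSs, and the spread was wide in dense bins, with quartiles of 6.25 and 23.

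Motifs within 100 bp of the summit are given for dense bins against the rest and then by kind of dense bin. Exact matches were counted on both strands. TATCGATA occurred at 2.75% (1.86 to 4.06) of dense-bin summits and 3.05% (2.74 to 3.39) of others, GGTCACACT at 2.29% (1.49 to 3.52) and 2.48% (2.21 to 2.79), GAGAGAG at 10.4% (8.58 to 12.6) and 9.82% (9.28 to 10.4), GTGGGCG at 6.19% (4.78 to 7.99) and 6.24% (5.80 to 6.71), CAGCTG at 13.1% (10.997 to 15.5) and 14.1% (13.4 to 14.8) and TATAAA at 15.6% (13.3 to 18.2) and 14.9% (14.2 to 15.6). All 6 pairs of intervals overlap. Within dense bins, TATCGATA was present at 21 of 371 summits of promoter-rich bins, or 5.66% (3.73 to 8.50). It was at 0 of 315 summits of distal-rich bins (0 to 1.20). By the cut of the kinds, 258 of the 371 but only 41 of the 315 regions covered a TSS. Contrasts between the kinds in motifs of promoters are thus in part built in. GGTCACACT was at 4.04% (2.47 to 6.56) in promoter-rich and 0.952% (0.324 to 2.76) in distal-rich bins, with intervals that overlap. GAGAGAG had 8.09% (5.72 to 11.3) and 12.7% (9.47 to 16.8) and GTGGGCG 4.85% (3.09 to 7.54) and 8.25% (5.69 to 11.8) in the same order, also with intervals that overlap.

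The higher share of GAGAGAG in distal-rich bins was not repeated by distance from a TSS. GAGAGAG was at 10.1% of dense-bin summits over TSSs and at 9.96% of those over 3 kb away. For other summits these shares were 10.6% and 8.59%. Position relative to the TSS went along with the share of TATCGATA inside and outside dense bins. Over TSSs, TATCGATA was found at 6.03% of dense-bin summits and 5.33% of others, and over 3 kb away at 0 of 281 dense-bin summits, which allows up to 1.07%, and at 0.205% of others. The EndoA window above, at a gene for endophilin, which acts in synaptic vesicle endocytosis, is the highest dense-bin example of a TATCGATA match over a TSS in a promoter-rich bin. TGACGTCA, TGAGTCA, AAAGGTCA and CAGGTAG were at 0.688%, 2.18%, 0.229% and 0.459% of dense-bin summits and at 0.498%, 1.80%, 0.378% and 1.11% of others, which are at most 19 regions each in dense bins. AAAGGTCA and GGTCACACT share the letters GGTCA and can overlap. The mean GC content of the window was 48.1% in dense bins and 47.5% elsewhere, with an SD over regions of 8.11 and 8.05 percentage points.

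**Figure D5:**
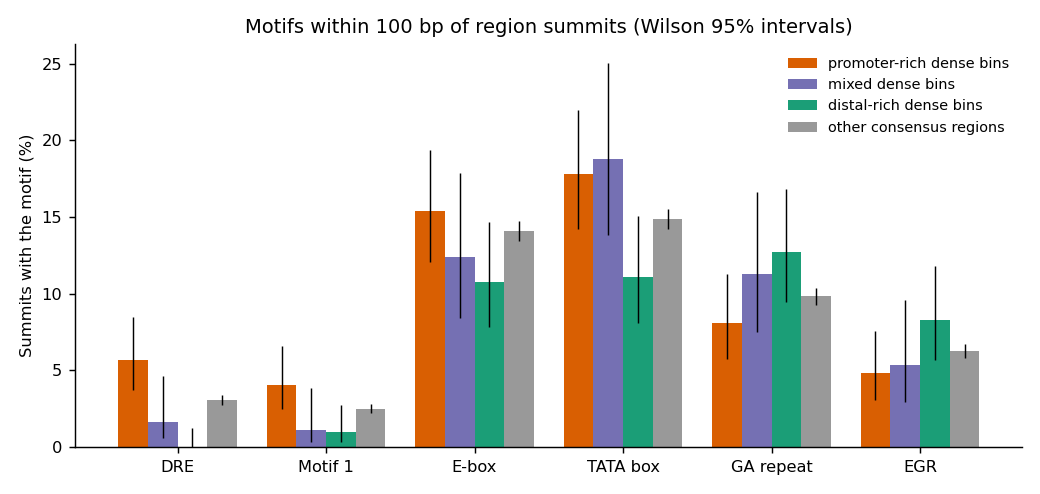
The bars give the percentage of summits with an exact match within 100 bp for 6 motifs, in promoter-rich, mixed and distal-rich dense bins and in the other consensus regions, with Wilson 95% intervals. DRE is TATCGATA, Motif 1 is GGTCACACT, the E-box is CAGCTG, the TATA box is TATAAA, the GA repeat is GAGAGAG and EGR is GTGGGCG. DRE is at 5.66% in promoter-rich and at 0 of 315 summits in distal-rich bins, kinds that were cut by TSS cover.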

How the data were processed

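ATAC-seq was done on MB nuclei of naive flies in 2 biological replicates. The authors trimmed reads with Trimmomatic (v0.39), aligned them with Bowtie2 (v2.4.1) to dm6, shifted them for the Tn5 offset, removed duplicates and reads from several loci, the mitochondrial genome or scaffolds, and called peaks in each replicate with MACS2 (v2.1.2, q-value of 0.01, minimum length 50, maximum gap 100). The deposited lists give, for each peak, the fold enrichment, a ratio of summit pileup to background with a pseudocount of 1, the −log10 of the p-value and of the q-value, a score that was not used, and the offset of the summit. No control library was named in the sources used here, so the background comes from the ATAC-seq library itself, and accessible DNA within about 10 kb can raise it and lower the fold enrichment.

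Peaks of both replicates that shared at least 1 bp were merged, and a region with a peak of each was a consensus region, with its highest peak in each replicate as its value. Pileup and background were solved from fold enrichment and Poisson p-value, and each solved pileup lay within 0.0221 of a whole number. The median summit pileup over all peaks was 219 in replicate 1 and 216 in replicate 2, with a Poisson error of 6.76% and 6.80%, and the total depth is not in the lists. TSS positions and genes came from Ensembl release 115 and sequences from RefSeq (Release 6, the same assembly as dm6). A region covers a TSS when the TSS lies in it, and distances run from its nearest edge. Motif shares are exact matches on both strands, and a summit is the mean of the 2 replicate summits.

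The members, gene lists and measures were chosen with earlier results of these data known. Genes named are those of the 5 dense bins with the most regions (ties by covered bases), of the 5 distal-rich bins with the most regions, of the 10 highest dense-bin regions, of the longest run, Hr38 and sr, and list members in dense bins. Others were named after their values were seen, and 1 gene under this rule is not reported here. No test was run, since there was 1 group and the rule used the peaks. The alternatives were other thresholds, bin borders and sizes, a reciprocal overlap of 50%, a −log10 q of at least 5, each replicate alone, protein-coding TSSs only, other measures of height and shorter summit windows. The merging, binning and solving steps were tested on simulated data. Python (3.11.15), numpy (2.4.6), pandas (2.3.3), scipy (1.17.1) and matplotlib (3.10.9) were used.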

Additional observations from a re-analysis of the deposited data

How the results depend on the processing

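Of 112 values recomputed over 12 settings, 40 stayed within 1.5 times for counts, or within the interval or replicate spread for the other measures, and 72 moved. Only dense-bin values were recomputed, not those of the other regions. With 10 or more regions per bin there were 1682 regions in 155 bins, 46.3% over a TSS, 28.8% over 3 kb away, a background of 126, a width of 786.5 bp and a gap of 2693 bp. With 12 or more there were 465 regions in 37 bins, 34.8% over a TSS, 39.1% over 3 kb away, 11 TSS positions per bin, a width of 730.0 bp and a gap of 2314.5 bp. Bins shifted by 25 kb gave 35.9% over 3 kb away, 12 TSS positions, a background of 126 and a width of 733 bp. Bins of 100 kb with 20 or more regions gave 561 regions in 27 bins, 23 TSS positions, 73.8% of genes with a region at a TSS, a background of 120.2, a width of 792 bp, a gap of 2891.5 bp, a GC content of 47.2% and TATCGATA at 1.78%. A reciprocal overlap of 50% gave 294 regions in 26 bins, 46.3% over a TSS, a percentile of 57.4, a background of 150.04, a width of 861 bp, a gap of 2674.5 bp and GAGAGAG at 15.3%. A −log10 q of at least 5 gave 201 regions in 18 bins, 45.8% over a TSS, 23.9% over 3 kb away, 13.5 TSS positions, a percentile of 61.6, a background of 161, a width of 871 bp, a gap of 2656 bp and GAGAGAG at 18.9%. With protein-coding TSSs only, 36.9% lay over 3 kb away and a bin had 10.5 TSS positions. Height by −log10 q gave a percentile of 53.0. Windows of 50 bp each side gave a GC content of 48.7%, TATCGATA at 1.26% and GAGAGAG at 5.50%. The causes were not tested.

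With 1 replicate left out, every peak of the other counts as a region. There were then 2912 to 3702 regions in 238 to 298 bins, 32.9% to 33.4% over a TSS, 36.1% to 37.1% over 3 kb away, 10.5 to 11 TSS positions, 75% to 75.9% of genes with a region at a TSS, a percentile of 38.6 to 40.5, a background of 110.3 to 114.7, a width of 508.5 to 510.0 bp, a gap of 2119 to 2309.5 bp, a GC content of 48.0% to 48.6%, TATCGATA at 2.13% to 2.30% and GAGAGAG at 8.24% to 8.56%. The share over a TSS ran from 32.9% to 46.3% over the settings. The share of the other regions was not recomputed, so these values do not show whether the dense bins stayed below the rest.

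The number and identity of dense bins thus depend on the threshold, the borders and the peak list. All 872 regions were again in dense bins with 10 or more regions and in each replicate alone, 53.3% with 12 or more, 37.2% after the shift, 33.7% with the reciprocal overlap, 32.1% with 100 kb bins and 23.1% at the stricter q. No paired analysis was possible because there was 1 group. The share of genes with a region at a TSS uses protein-coding TSSs by construction. Peaks with low pileup limit what can be counted, since a weak region missed in 1 replicate can move a bin across the threshold.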

Other observations

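One promoter-rich bin, chr3L:9350001-9400000, held the small heat shock protein genes and is described because of them, after its values were seen. It had 13 regions, 9 of them over a TSS. These genes encode chaperones that are induced by heat and, in development, by ecdysone. The regions over the TSSs of Hsp22, Hsp26, Hsp67Ba and Hsp27 had fold enrichments of 2.32, 1.64, 2.20 and 2.22 in replicate 1 and 2.26, 1.61, 2.08 and 2.15 in replicate 2. The region over the TSSs of UGP and Svip had 2.86 and 2.65, and the region over the TSS of Pdxk 2.91 and 2.58.

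Another promoter-rich bin, chr3R:12400001-12450000, had 12 of its 13 regions over a TSS, with 28 TSS positions and 21 starts of protein-coding genes, among them the proteasome gene Prosalpha2, and its regions covered 30.1% of the bin. It was also chosen after its values were seen.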
